A study of Mus musculus with 6 samples.

Results

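The genes described here build and equip the brush border, the carpet of microvilli on the luminal face of an intestinal absorptive cell. They were taken by name from a list of 36 gene symbols, 18 coding for brush border hydrolases and 18 for microvillus structure. Of the 36, 35 were found among the 18448 genes of the count table, and all 35 passed the filter on low counts, which left 14544 genes. Expression of Tmprss15, the enteropeptidase gene, was not analysed here.

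RNA was sequenced from mouse jejunal organoids, epithelial cultures grown from the middle part of the small intestine, in 6 libraries. All 6 came from C57BL/6 organoids of the genotype Villin-CreERT2; Hnf4aflox/flox, in which the villin promoter drives a tamoxifen-inducible Cre recombinase in the epithelium. In 3 libraries the organoids had received 0.5 µM 4-hydroxytamoxifen (4OHT) for 24 h, which activates the recombinase and deletes Hnf4a, and in the other 3 they had received the vehicle DMSO. The organoids were then split, and all were given 200 ng/mL recombinant mouse Wnt3A and harvested at day 2. Both groups thus carried the floxed alleles, the recombinase and added Wnt3A, and effects of 4OHT or of Cre activity cannot be told apart here from those of Hnf4a loss. The comparison asks how these genes differ after depletion of Hnf4a, a nuclear receptor of the intestinal epithelium.

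Disaccharidases and peptidases are anchored in the microvillus membrane, where they complete the digestion of sugars and peptides at the cell surface. Each microvillus holds a bundle of parallel actin filaments, cross-linked by bundling proteins, tied to the membrane by myosins and linker proteins, and joined to its neighbours at the tips by protocadherins. Enterocytes acquire this apparatus as they leave the crypt and mature, so its genes are widely read as a sign of enterocyte differentiation.

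Promoter sequence was examined because the factor deleted in this design binds DNA. RefSeq promoters (GRCm38.p6) were matched for 31 of the 36 genes, at 42 start sites, and the 250 bases before each start were searched on both strands. The HNF4 letters CAAAGTCCA were found before Alpi and Treh, 2 of the 31 genes, against 0.451% of all 27025 genes with a promoter in the table. A variant with 1 changed letter, CAAAGTTCA, was found before Anks4b (0.392% of all genes). The CDX letters TTTATNG were found before 5 genes, Alpi, Dpp4, Espn, Sis and Tmprss15 (11.3% of all genes), and the GATA letters AGATAAG before Mgam (3.17%). The palindromic HNF1 consensus was found before 0 of the 31 and before 0.0111% of all genes. A match describes letters only and is not a measured binding site. The 120 bases nearest the start site are printed below 5′ to 3′ on the strand of the gene, for the 3 genes with HNF4 letters and for Sis and Mgam, the most abundant disaccharidase genes per kilobase. Capitals mark the matches.
Alpi, chr1:87101607-87101726, minus strand, HNF4 letters and, before them, CDX letters: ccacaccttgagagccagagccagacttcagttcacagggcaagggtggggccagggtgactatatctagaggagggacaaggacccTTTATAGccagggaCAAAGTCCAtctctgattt
Treh, chr9:44673113-44673232, plus strand, HNF4 letters on the opposite strand: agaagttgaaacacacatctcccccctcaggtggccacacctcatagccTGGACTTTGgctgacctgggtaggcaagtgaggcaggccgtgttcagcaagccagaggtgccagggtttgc
Anks4b, chr7:120173738-120173857, plus strand, HNF4 variant on the opposite strand: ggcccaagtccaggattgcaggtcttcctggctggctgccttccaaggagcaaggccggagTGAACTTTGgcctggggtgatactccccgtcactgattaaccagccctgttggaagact
Sis, chr3:72967864-72967983, minus strand, CDX letters on the opposite strand: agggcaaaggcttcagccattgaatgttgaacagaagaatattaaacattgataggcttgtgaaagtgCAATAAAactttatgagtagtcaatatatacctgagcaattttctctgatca
Mgam, chr6:40628711-40628830, plus strand, GATA letters on the opposite strand: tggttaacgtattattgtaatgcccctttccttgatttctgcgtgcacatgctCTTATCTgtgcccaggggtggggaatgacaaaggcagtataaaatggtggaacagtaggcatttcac

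Library totals ran from 31537100 to 40276242 counts, and levels are given as CPM, which are read counts scaled to library size. Hnf4a itself measured 839.8, 846.2 and 1021 CPM under DMSO (replicates 1 to 3) and 435.9, 423.7 and 481.7 CPM with 4OHT, with no overlap between the groups (log2 fold change -1.01, SE 0.0997, edgeR adjusted p = 0.0124). That is 2.02-fold lower, counted over the whole gene, which can include transcripts of a deleted allele. When single libraries were left out the adjusted p of Hnf4a ran from 0.00543 to 0.0951, and it passed only without DMSO replicate 3, in fits whose log2 fold changes ran from -1.07 to -0.92. Markers of cells outside the epithelium were scarce: the endothelial list (Pecam1 alone was measured) came to 0.306 to 0.478 CPM and the fibroblast list to 4.44 to 7.60 CPM, nearly all of it Vim, whereas Col1a1 reached at most 0.372 CPM. Fabp6, a marker of the ileum, stayed between 0.111 and 0.629 CPM.

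Replicate 3 stood apart for the brush border genes in both groups. On the log2 scale, with 0.5 CPM added, 31 of the 35 genes were higher in DMSO replicate 3 than the mean of DMSO replicates 1 and 2, and 31 were so in 4OHT replicate 3. Both held for 30 of the 35, beside 33.3% of all tested genes. The median excess was 0.59 in DMSO and 0.25 after 4OHT, where the median of all tested genes was 0.00 in both. The hydrolases accounted for most of it, with medians of 0.90 and 0.54, against 0.25 and 0.17 for the structural genes. Enpp7 showed the widest gap, 1.94 in DMSO and 1.36 after 4OHT, followed by Sis with 1.53 and 0.87. Enpp3, Myo7b and Eps8 were lower in replicate 3 of both groups, and Lct was higher in DMSO replicate 3 (0.90) and lower in 4OHT replicate 3 (-0.46).

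**Figure D1:**
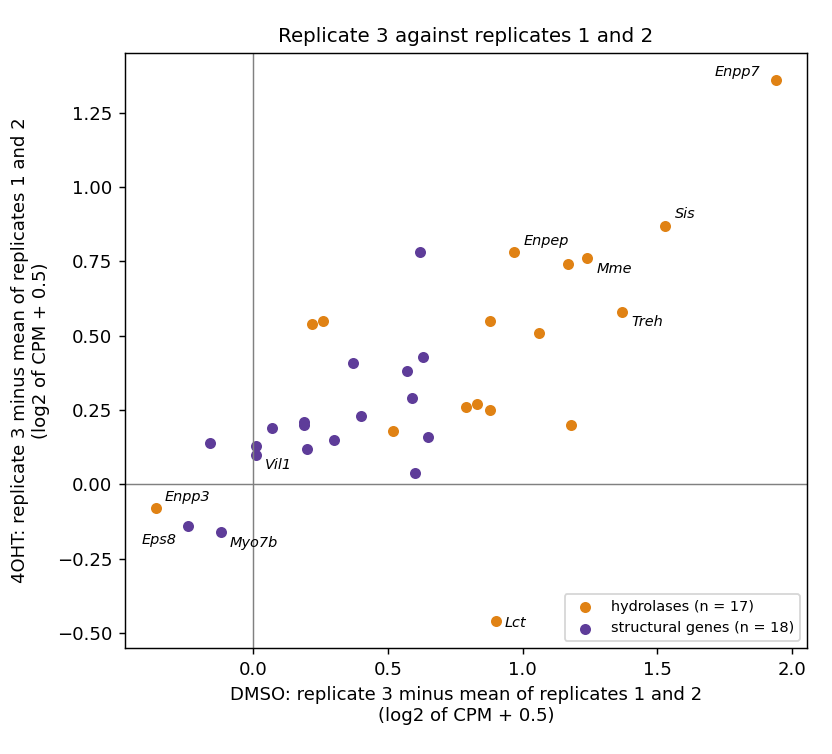
Each point is 1 of 35 brush border genes, placed by its level in replicate 3 minus the mean of replicates 1 and 2 (log2 of CPM + 0.5) in DMSO on the x axis and after 4OHT on the y axis; orange points are the 17 hydrolases and purple points the 18 structural genes. Of the 35 points, 30 lie in the upper right part, and Enpp7 and Sis lie farthest out.

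Because libraries with the same replicate number deviated from their group means in the same direction, 4OHT was compared with DMSO with and without the replicate number as a term (the replicate block). Without the block, 0 of the 35 genes passed an adjusted p of 0.05 in either direction in edgeR's quasi-likelihood test, where 0.206% of all tested genes were called lower and 0.701% higher. At an unadjusted p under 0.05, 8 were lower and 1 was higher (6.35% and 8.65% of all genes), and DESeq2 called 4 lower (1.76% of all genes), Lct, Mep1b, Ggt1 and Pdzk1. With the replicate block 13 of the 35 fell (3.00% of all genes) and 0 rose (3.99% of all genes). The 13 were Mgam, Enpp7, Enpep, Xpnpep2, Dpp4, Ace, Mme, Mep1b, Naaladl1, Ggt1, Cdhr2, Calml4 and Pdzk1.

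The sign was shared more widely than the calls. Of the 35 genes, 31 were below 0 (50.8% of all genes), the median log2 fold change was -0.43 beside 0.00 for all genes, and 29 were lower in every same-numbered pair (24.5% of all genes). Myo1d, Eps8 and Ezr were higher in every pair (25.3% of all genes). The groups did not overlap for 10 genes: Lct, Mgam, Anpep, Xpnpep2, Mep1b, Ggt1, Cdhr2, Myo7b and Pdzk1 were lower (10.1% of all genes) and Ezr was higher (12.5%). In this bulk RNA, fewer mature enterocytes and less RNA of these genes per enterocyte cannot be told apart.

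**Figure D2:**
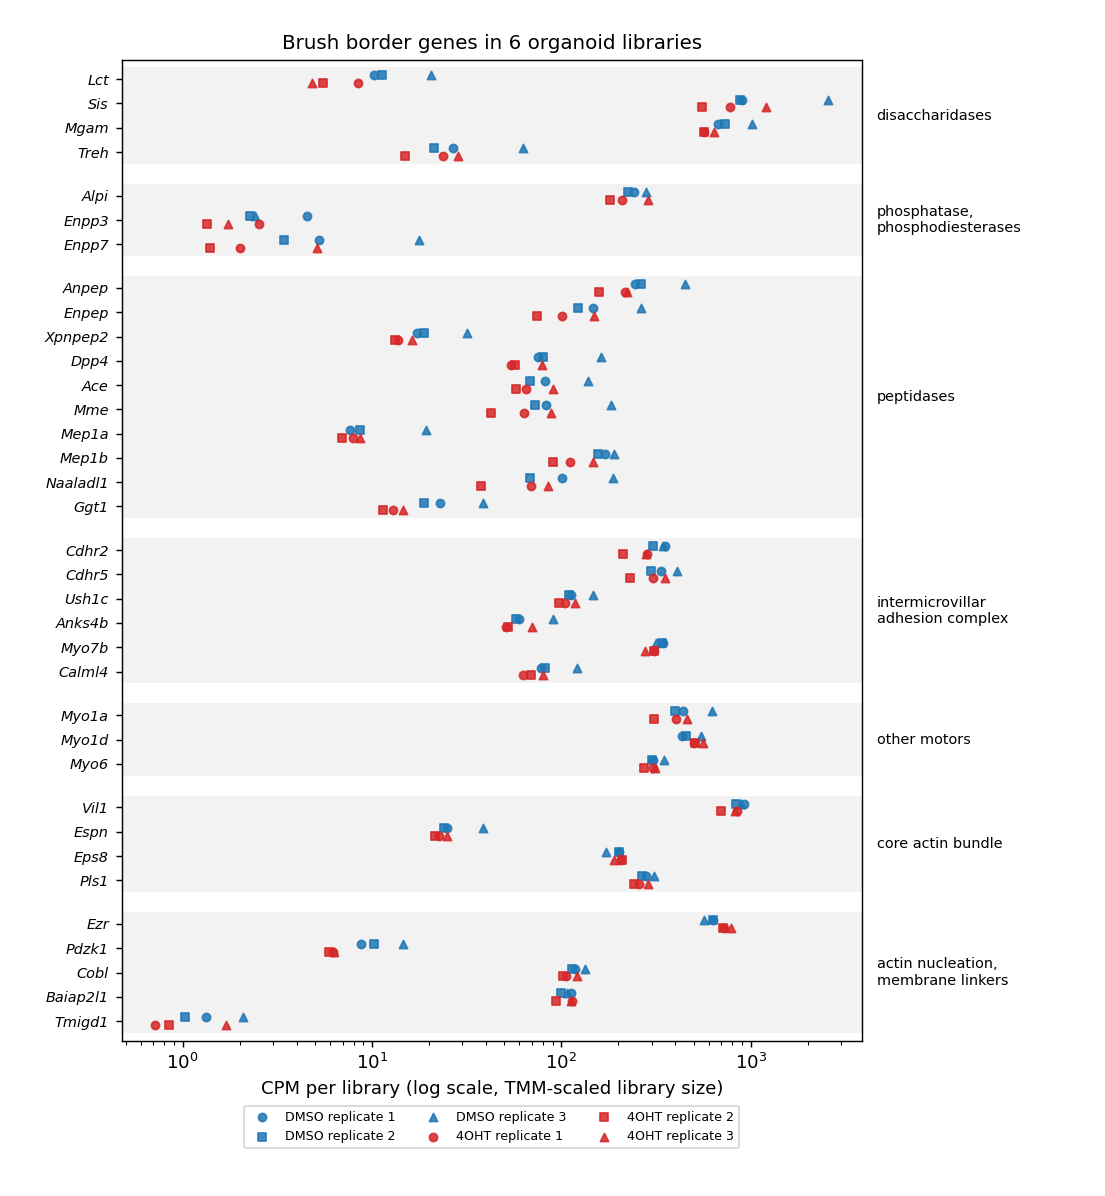
Each row is a brush border gene, grouped by role, with its CPM on a log axis in 3 DMSO libraries (blue) and 3 4OHT libraries (red); circles, squares and triangles are replicates 1, 2 and 3. Vil1 and Sis lie at the upper end and Tmigd1 at the lower end, and the blue triangle of DMSO replicate 3 is the highest point of every hydrolase but Alpi and Enpp3.

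Hydrolases and structural genes are given apart. All 17 hydrolases were below 0, their median log2 fold change being -0.72, and 10 of them fell with the block. Of the 18 structural genes 14 were negative, with a median of -0.18, and 3 fell with the block. Within pairs the hydrolase medians were -0.33, -0.66 and -1.02 for pairs 1, 2 and 3, and the structural medians were -0.13, -0.16 and -0.20, while all tested genes had medians of 0.00, 0.01 and 0.00. The lists were described and not tested against each other.

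Single libraries weighed heavily on these values. Without DMSO replicate 3 the median of the 35 genes was -0.12, that of the hydrolases -0.32, and 2 genes fell, Ggt1 and Pdzk1 (0.587% of all genes). With replicate 3 of both groups left out, the median was -0.29, and 5 genes fell without the block, Enpp7, Dpp4, Mep1b, Ggt1 and Pdzk1 (1.51% of all genes). In those 4 libraries with the block, 27 fell (8.16%) and 2 rose (10.1%), Myo1d and Ezr. With the block and without replicate 1 of both groups 13 fell (2.47% of all genes), of which 9 were among the 13 of the full fit. Without replicate 2 of both groups, Enpp7 alone fell (0.0685%).

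**Figure D3:**
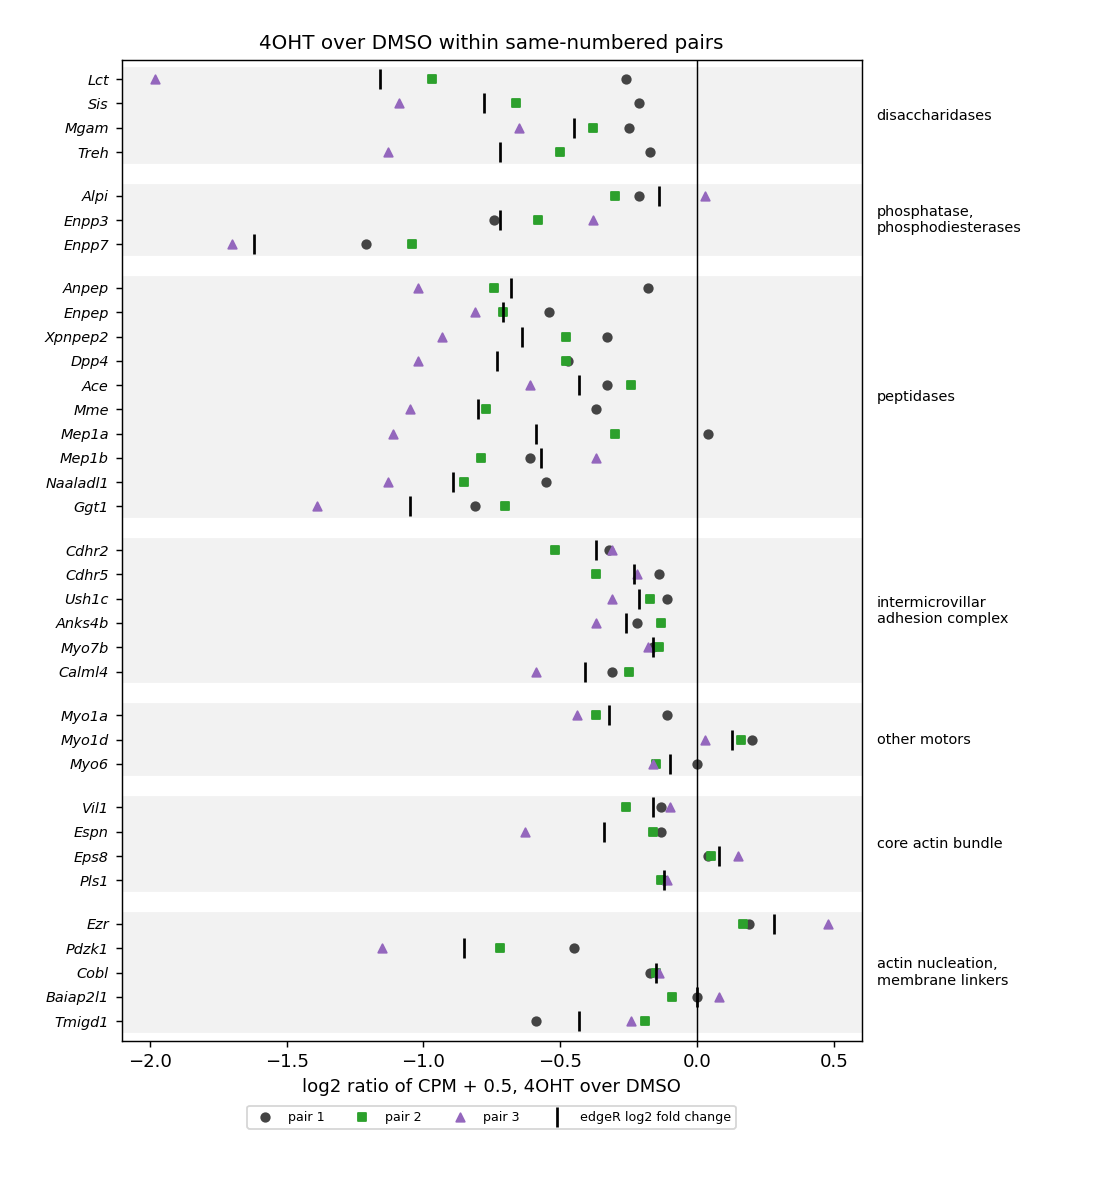
For each brush border gene the x axis gives the log2 ratio of 4OHT to DMSO (CPM + 0.5) in same-numbered pairs 1 (circle), 2 (square) and 3 (triangle), and the black bar is the log2 fold change of the fit without the block. Of the 35 genes, 29 have all 3 pair values below 0, and the spread between pairs is widest for Lct.

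Among the disaccharidases, which split dietary sugars, 1 of 4 fell with the block and all 4 were lower in every pair. Sis, sucrase-isomaltase, measured 905.8, 878 and 2573 CPM under DMSO (replicates 1 to 3) and 782.3, 556.3 and 1206 CPM with 4OHT. DMSO replicate 3 was more than double any other library, and 4OHT replicate 3 lay above both remaining DMSO libraries. Its means were 1452 ± 971 and 848 ± 330 CPM (SD, n = 3), and the log2 fold change of -0.78 (SE 0.474) missed the threshold without (edgeR adjusted p = 0.499) and with the block (0.0677). Per kilobase of annotated exon Sis was the most abundant hydrolase transcript, at 154 CPM per kb over the 6 libraries.

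Mgam, maltase-glucoamylase, was steadier, at 674.5, 736.5 and 1012 CPM under DMSO and 567.9, 565.5 and 643.3 CPM with 4OHT. Every 4OHT library lay below every DMSO library. The log2 fold change was -0.45 (SE 0.154, adjusted p = 0.241), and with the block Mgam fell (-0.43, SE 0.0853, adjusted p = 0.0443). Lct, lactase, was scarce, with 10.3, 11.3 and 20.6 CPM under DMSO and 8.48, 5.53 and 4.83 CPM with 4OHT; it was singled out after its values were seen. Its log2 ratio was -0.26, -0.97 and -1.98 in pairs 1, 2 and 3, the widest spread of the 35 genes. Without the block Lct differed by -1.16 (SE 0.322, adjusted p = 0.156), with it the adjusted p was 0.0994, and DESeq2 placed it past the threshold (0.00495). Treh, trehalase, the other gene with the HNF4 letters, ran from 21.3 to 62.6 CPM under DMSO and from 14.9 to 28.4 CPM with 4OHT (-0.72, adjusted p = 0.487, and 0.0988 with the block).

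Of the 3 phosphatase and phosphodiesterase genes, 1 fell with the block. Alpi, intestinal alkaline phosphatase, whose promoter printed above holds HNF4 and CDX letters, measured 243.1, 224.2 and 279.8 CPM under DMSO and 209.4, 181.9 and 285.7 CPM with 4OHT. The ranges overlapped, pair 3 went up by 0.03 on the log2 scale, and the difference of -0.14 (SE 0.17) did not pass (adjusted p = 0.751, and 0.232 with the block). Alpi has close copies in the mouse genome, among them Akp3 (4.01 to 5.98 CPM over the 6 libraries), so the split of reads between them is uncertain. Enpp7, the alkaline sphingomyelinase that acts on dietary sphingomyelin, measured 5.28, 3.43 and 17.7 CPM under DMSO and 2, 1.4 and 5.11 CPM with 4OHT. DMSO replicate 3 and 4OHT replicate 3 were each the highest of their group, so the groups overlapped while every pair went down. Enpp7 had the largest log2 fold change of the 35 genes, -1.62 (SE 0.716, adjusted p = 0.352), and fell with the block (-1.53, SE 0.145, adjusted p = 0.00966). Enpp3, a nucleotide phosphodiesterase, was the lowest per kilobase, at 0.411 CPM per kb, with 2.26 to 4.56 CPM under DMSO and 1.35 to 2.52 CPM with 4OHT (-0.72, adjusted p = 0.393, and 0.058 with the block).

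The membrane peptidases held 8 of the 13 genes that fell with the block. All 10 measured peptidase genes were below 0 (log2 fold changes -1.05 to -0.43), and 9 were lower in every pair. Their summed level was 877 to 1664 CPM under DMSO and 550 to 902 CPM with 4OHT. Anpep, aminopeptidase N and the most abundant of them per kilobase (62.7 CPM per kb), measured 244.9, 262.8 and 450.5 CPM under DMSO and 216.8, 157.5 and 222.5 CPM with 4OHT. The groups did not overlap, yet the log2 fold change of -0.68 (SE 0.251) missed the threshold (adjusted p = 0.27, and 0.0634 with the block).

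Enpep, aminopeptidase A, which removes acidic residues, had the smallest adjusted p of the 35 genes with the block. It measured 147.4, 122 and 262.6 CPM under DMSO and 101.4, 74.6 and 149.6 CPM with 4OHT. The 2 ranges overlapped through replicate 3 of 4OHT, whereas the pair ratios of -0.54, -0.71 and -0.81 were close to each other. Enpep differed by -0.71 without the block (SE 0.342, adjusted p = 0.393) and fell with it (-0.69, SE 0.0616, adjusted p = 0.00863). Xpnpep2, a membrane aminopeptidase P that cleaves before proline, measured 17.4, 18.8 and 31.6 CPM under DMSO and 13.8, 13.3 and 16.3 CPM with 4OHT, without overlap. It fell with the block (-0.60, adjusted p = 0.0494) and not without it (-0.64, adjusted p = 0.264).

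Dpp4, dipeptidyl peptidase 4, which releases dipeptides and inactivates incretin hormones, measured 75.2, 79.8 and 162.1 CPM under DMSO and 54.1, 57.2 and 79.4 CPM with 4OHT. Within replicates 1 and 2 every 4OHT library lay below every DMSO library, and 4OHT replicate 3 reached the DMSO range. Dpp4 fell with the block (-0.67, adjusted p = 0.033) and had an adjusted p of 0.335 without it. Ace, angiotensin-converting enzyme, which removes carboxyl-end dipeptides, measured 81.9, 68.3 and 137.9 CPM under DMSO and 65.2, 57.9 and 89.9 CPM with 4OHT. Its ranges overlapped, and it fell with the block alone (-0.40, adjusted p = 0.0426, and 0.522 without it). The log2 fold change of Ace was -0.09 without DMSO replicate 3 and -0.29 with replicate 3 of both groups left out.

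Mme, neprilysin, an endopeptidase of small peptides, measured 82.7, 72.8 and 184.2 CPM under DMSO and 63.6, 42.5 and 88.5 CPM with 4OHT. Only DMSO replicate 3 exceeded 90 CPM among these 6 values. Mme fell with the block (-0.74, adjusted p = 0.0301) and had an adjusted p of 0.413 without it. Naaladl1, a peptidase related to glutamate carboxypeptidase, measured 101.4, 68.2 and 187.3 CPM under DMSO and 68.9, 37.6 and 85.6 CPM with 4OHT. In both groups its replicates ranked alike, 3 above 1 above 2, and the pair ratios were -0.55, -0.85 and -1.13. Naaladl1 fell with the block (-0.85, adjusted p = 0.017, and 0.38 without it).

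The 2 meprin subunits, which form a secreted and membrane-bound metalloprotease, were unequal in level. Mep1b, the beta subunit, measured 170, 157 and 189.8 CPM under DMSO and 111.3, 90.6 and 146.7 CPM with 4OHT, without overlap and with a smaller excess in DMSO replicate 3 (0.22 on the log2 scale) than any other peptidase gene. Mep1b fell with the block (-0.59, SE 0.0822, adjusted p = 0.0212), and without the block it missed the threshold in edgeR (-0.57, adjusted p = 0.185) and passed in DESeq2 (0.0351). Mep1a, the alpha subunit, lay between 7.67 and 19.2 CPM under DMSO and between 6.94 and 8.61 CPM with 4OHT (-0.59, adjusted p = 0.473, and 0.248 with the block). Its pair 1 ratio was 0.04, the one peptidase value above 0.

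Ggt1, gamma-glutamyltransferase, which begins the breakdown of glutathione at the cell surface, had the largest change among the peptidases. It measured 22.9, 18.9 and 38.8 CPM under DMSO and 12.9, 11.5 and 14.5 CPM with 4OHT. The groups did not overlap, and the level was 2.07-fold lower with 4OHT (a log2 difference of -1.05, SE 0.262, adjusted p = 0.126). Ggt1 fell with the block (SE 0.143, adjusted p = 0.022), in DESeq2 (0.00161) and in the fit without DMSO replicate 3 (-0.69, adjusted p = 0.0473).

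The intermicrovillar adhesion complex joins the tips of neighbouring microvilli. All 6 of its genes were lower in every pair, by small amounts (log2 fold changes -0.41 to -0.16, median -0.24), and 2 fell with the block. Cdhr2, 1 of the 2 protocadherins whose heads meet between microvilli, measured 352.8, 306.4 and 345.6 CPM under DMSO and 282.8, 213 and 279.1 CPM with 4OHT. The groups did not overlap, and replicate 3 lay between replicates 1 and 2 in both. Cdhr2 fell with the block (-0.38, SE 0.0594, adjusted p = 0.0249) and missed the threshold without it (-0.37, SE 0.12, adjusted p = 0.215).

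Its partner Cdhr5 was the most abundant of the complex per kilobase (117 CPM per kb) and measured 334.6, 298.5 and 409.4 CPM under DMSO and 304.2, 231.2 and 352.5 CPM with 4OHT. The ranges overlapped, and the log2 fold change of -0.23 (SE 0.174) did not pass (adjusted p = 0.592, and 0.0676 with the block). Calml4, the calmodulin-like light chain of the complex, measured 78.1, 82.4 and 121.3 CPM under DMSO and 62.9, 69.1 and 80.5 CPM with 4OHT. It fell with the block (-0.39, adjusted p = 0.0402) and not without it (-0.41, adjusted p = 0.35). The scaffold genes Ush1c (110.2 to 147.1 CPM in DMSO, 97.6 to 118.5 CPM with 4OHT) and Anks4b (57.6 to 90.8 and 51.2 to 69.9 CPM) had adjusted p-values of 0.506 and 0.606. Myo7b, the motor that carries the complex to the tips, lay between 315.2 and 346.4 CPM under DMSO and between 277.3 and 310.8 CPM with 4OHT, without overlap, a log2 difference of -0.16 (SE 0.0709, adjusted p = 0.354, and 0.0869 with the block).

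Of the 3 other microvillus motors, 0 passed with or without the block in edgeR, and DESeq2 called 0. In edgeR 0 had an unadjusted p under 0.05 without the block, and 1 was lower with it (1751 of all 14544 tested genes). Myo1a, brush border myosin I, which ties the actin bundle to the membrane, was the most abundant per kilobase at 118 CPM per kb. It measured 438.4, 400.9 and 624.3 CPM under DMSO and 405.2, 309.2 and 460.6 CPM with 4OHT, with overlapping ranges (-0.32, SE 0.203, adjusted p = 0.519, and 0.0643 with the block). Myo1d, another class I myosin of the microvillus, was higher in every pair, by 0.20, 0.16 and 0.03, and ran from 435 to 548.1 CPM under DMSO and from 500 to 559.7 CPM with 4OHT (adjusted p = 0.617). Myo6, which moves towards the microvillus base, had a log2 fold change of -0.10 (adjusted p = 0.626).

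Of the 4 core actin bundle genes, 0 passed in edgeR with or without the block or in DESeq2. At an unadjusted p under 0.05, 0 were lower without the block and 3 with it, where 1751 of all 14544 tested genes were lower. Vil1, villin, an actin bundler and the gene whose promoter drives the recombinase, measured 926.5, 837 and 887.8 CPM under DMSO and 844.6, 700.9 and 827.5 CPM with 4OHT. The 4OHT range overlapped the DMSO range through replicate 1, and DMSO replicate 3 was the middle value. Group averages were 884 ± 44.9 and 791 ± 78.5 CPM (SD, n = 3), a log2 difference of -0.16 (SE 0.0907, adjusted p = 0.466, and 0.148 with the block). Per kilobase Vil1 was the highest of the 35 genes, at 236 CPM per kb, and ranked 172 among the tested genes with an annotated length.

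Pls1, the plastin of the brush border, which packs the filaments, ran from 266.4 to 310.5 CPM under DMSO and from 243.3 to 287.2 CPM with 4OHT. Its pair ratios were -0.12, -0.13 and -0.11, nearly the same in each pair (log2 fold change -0.12, adjusted p = 0.579, and 0.151 with the block). Espn, espin, a further bundler, was at 24.1 to 38.7 and 21.6 to 24.8 CPM (-0.34, adjusted p = 0.445). Eps8, which caps and bundles filaments at the microvillus tip, was at 171.5 to 202.8 and 189.8 to 210.5 CPM (0.08, adjusted p = 0.717, and 0.00 without DMSO replicate 3).

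The membrane linkers and actin nucleators included Pdzk1, with the smallest unadjusted p of the 35 genes without the block (0.0029), and Ezr, whose 4OHT libraries were the higher ones. Pdzk1, a PDZ scaffold that holds transporters at the apical membrane, measured 8.73, 10.2 and 14.5 CPM under DMSO and 6.24, 5.96 and 6.27 CPM with 4OHT. The 4OHT libraries were nearly equal, and all lay below the lowest DMSO library. The log2 fold change of -0.85 (SE 0.191) had an adjusted p of 0.0995 without the block and 0.0379 with it, 0.00172 in DESeq2 and 0.0495 without DMSO replicate 3. Exons of 3 genes on the opposite strand overlap Pdzk1, and the strand setting of the counting was not given in the sources used here, so reads of Pdzk1 and those genes may be mixed. The same holds for Treh, Dpp4, Ace, Ush1c, Vil1, Ezr and Baiap2l1.

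Ezr, ezrin, which links the actin bundle to the membrane, measured 636.2, 634.2 and 568.8 CPM under DMSO and 727.9, 714.6 and 792.1 CPM with 4OHT. Every 4OHT library lay above every DMSO library, and DMSO replicate 3 was the lowest of its group. The log2 fold change of 0.28 (SE 0.0762) missed the threshold without (adjusted p = 0.15) and with the block (0.0836). Cobl, cordon-bleu, an actin nucleator, had a log2 fold change of -0.15 (adjusted p = 0.461, and 0.075 with the block), and Baiap2l1, which bends membrane and works with Cobl and Eps8, had one of 0.00 (SE 0.0903, adjusted p = 0.998). Tmigd1, an adhesion protein of the epithelium, was near the detection limit at 1.03 to 2.08 CPM under DMSO and 0.716 to 1.69 CPM with 4OHT (-0.43, adjusted p = 0.67).

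Other brush border hydrolases, from a list kept apart from the 36, did not pass in edgeR's fit of all 6 libraries without the block. Of the 11 tested, 0 were called there, and the median log2 fold change was -0.04. At an unadjusted p under 0.05, 2 were lower and 2 higher (6.35% and 8.65% of all genes). DESeq2 called 2 lower (1.76% of all genes). With the block 2 fell (3.00% of all genes) and 0 rose (3.99%). Dpep1, a membrane dipeptidase, went from 24 ± 7.52 to 13.6 ± 2.63 CPM (SD, n = 3). It fell with the block (-0.80, edgeR adjusted p = 0.0132, and 0.17 without it) and in DESeq2 (adjusted p = 0.0138). Tmprss2, a membrane serine protease, had a log2 fold change of 0.36 (adjusted p = 0.171, and 0.0858 with the block), and Cpm, carboxypeptidase M, one of 0.48 (0.201 and 0.0894).

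Among 25 tested genes of the microvillus and terminal web outside the 36, 1 rose and 0 fell without the block in edgeR. Over all genes 0.701% rose and 0.206% fell in that fit. With the block 6 rose (3.99% of all genes) and 2 fell (3.00%). DESeq2 called 4 higher (474 of all 14871 genes with an adjusted p) and 1 lower (1.76%). The median log2 fold change without the block was 0.13 in edgeR. Eps8l1, a relative of Eps8, rose: it measured 5.39, 5.01 and 5.04 CPM under DMSO and 8.73, 9.19 and 9.94 CPM with 4OHT (log2 fold change 0.85, SE 0.106, adjusted p = 0.0264, and 0.017 with the block). Its libraries differed little within each group, replicate 3 included, but with single libraries left out it passed only without DMSO replicate 3 (adjusted p = 0.0243, and 0.0804 to 0.124 otherwise). With the block Pdzk1ip1, a small membrane protein that binds Pdzk1, rose from 9.92 to 17.8 CPM (0.83, adjusted p = 0.0132). Stk10, a kinase of ezrin and its relatives, rose with the block from 12.7 to 18.9 CPM (0.57, adjusted p = 0.0436). Baiap2l2, a relative of Baiap2l1, fell with the block from 363 ± 48.6 to 256 ± 26.9 CPM (-0.50, adjusted p = 0.009, and 0.111 without it).

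Several of these genes belong to families with a member among the 36, and the relatives are given side by side, chosen after their values were seen. In the Eps8 family, Eps8l3 fell with the block (-0.36, adjusted p = 0.0246), Eps8l1 rose, and Eps8l2 (-0.06, adjusted p = 0.751) and Eps8 did not pass. In the Baiap2 family, Baiap2 rose with the block from 37.7 to 54.1 CPM (0.53, adjusted p = 0.0402), Baiap2l2 fell with it, and Baiap2l1 did not pass. Of the plastins, Pls3, the broadly expressed one, rose with the block from 88.6 to 120 CPM (0.46, adjusted p = 0.0291), and Pls1 and Lcp1 (-0.33, adjusted p = 0.0932) did not pass. Vill, the villin-like gene, was at 34.3, 22 and 6.63 CPM under DMSO and 63.7, 44.1 and 37.9 CPM with 4OHT, without overlap, but missed the threshold (adjusted p = 0.335, and 0.0527 with the block). Msn, moesin, a relative of ezrin, rose with the block from 0.429 to 1.13 CPM (1.38, adjusted p = 0.0388). Its level was near the detection limit, and it did not pass in edgeR without the block. Differences between relatives were not tested.

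**Figure D4:**
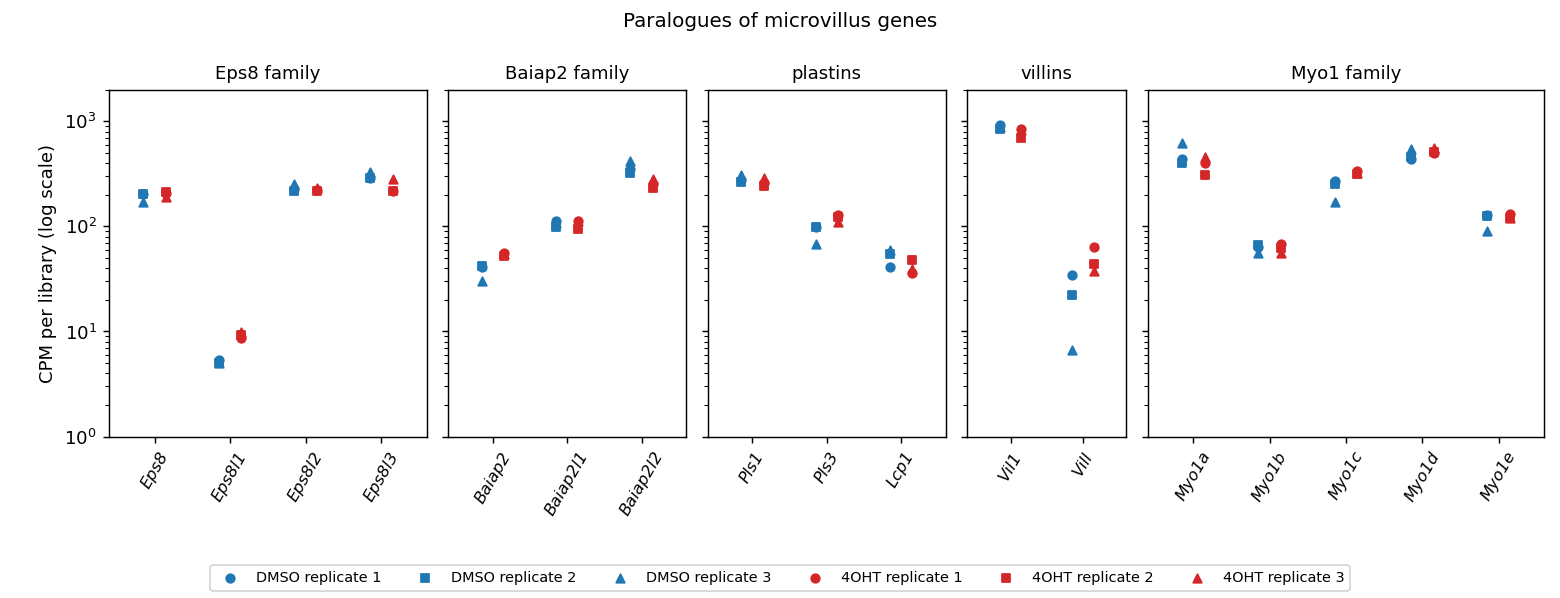
The 5 panels show gene families of the microvillus, with CPM on a log axis in each DMSO (blue) and 4OHT (red) library and a marker shape per replicate. The 4OHT points lie above the DMSO points for Eps8l1, Baiap2, Pls3, Vill and Myo1c and below them for Eps8l3 and Baiap2l2.

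Genes of apical vesicle delivery, the route by which hydrolases reach the microvillus, stayed close to 0. Of 11 tested, edgeR called 0 with and without the block, and DESeq2 called 0. In edgeR 1 was higher at an unadjusted p under 0.05 without the block (8.65% of all genes). Log2 fold changes ran from -0.10 to 0.29, the last for Rab11a, a small GTPase of recycling endosomes (96.3 to 106.8 CPM and 112.4 to 132.6 CPM, adjusted p = 0.144, and 0.0536 with the block). Unc45a, Vamp8 and Rab11fip1 had log2 fold changes of 0.15, 0.11 and 0.09. Stx3 and Stxbp2, whose loss causes microvillus inclusion disease or its variants, had log2 fold changes of 0.02 and 0.06.

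A list of other enterocyte genes, mostly of soluble and secreted products, had a median log2 fold change of -0.45 over 13 tested genes, and 11 were negative. Without DMSO replicate 3 the median was -0.06 and 8 were negative. With replicate 3 of both groups left out, the median was -0.30 and 10 were negative. Without the block edgeR called 0, with 2 lower and 1 higher at an unadjusted p under 0.05 (6.35% and 8.65% of all genes). DESeq2 called 1 lower (1.76% of all genes). With the block 4 fell (3.00% of all genes), Apoa1, Apob, Fabp2 and Rbp2, and 1 rose (3.99%), Dgat2. Apoa1, the main protein of high-density lipoprotein, went from 719 ± 167 to 423 ± 90 CPM (-0.76 with the block, adjusted p = 0.00581, and 0.152 without it). Apob, the backbone of the chylomicron, went from 874 ± 171 to 640 ± 106 CPM (-0.44 with the block, adjusted p = 0.0143, and 0.287 without it). Dgat2, which makes triglyceride, rose with the block from 95.5 to 125 CPM (0.38, adjusted p = 0.0179), and Fabp1 did not pass (0.0789). The summed level of the list was highest in DMSO replicate 3, at 9636 CPM, where the other 5 libraries lay between 3098 and 5581 CPM.

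Of 17 regulators of enterocyte genes, Hnf4a fell and 16 did not pass, with or without the block. Elf3, Klf4 and Cdx1 had the next smallest p-values, with log2 fold changes of 0.20, 0.28 and -0.18 (adjusted p = 0.308, 0.343 and 0.386). Hnf4g, Cdx2 and Gata4 had log2 fold changes of -0.13, 0.01 and -0.12.

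Markers of other epithelial cells did not all shift in the direction of the brush border genes. Median log2 fold changes without the block were 0.81 for goblet, 0.28 for enteroendocrine and 0.12 for tuft cells. They were -0.34 for stem, -0.05 for Paneth and -0.02 for proliferating cells. Over all genes edgeR called 0.206% lower and 0.701% higher without the block, and 3.00% and 3.99% with it. At an unadjusted p under 0.05 without the block, 8.65% of all genes were higher. DESeq2 called 1.76% of all genes lower and 474 of 14871 higher. The goblet cell list summed to 2003 to 3810 CPM under DMSO and 3355 to 5772 CPM with 4OHT, and in edgeR 0 of its 7 genes passed without the block (3 higher at an unadjusted p under 0.05) and 6 rose with it. DESeq2 called 2 of the 7 higher, and edgeR 5 without DMSO replicate 3 (253 of all 14833 tested genes). The goblet median was 1.24 in that fit and 0.98 in replicates 1 and 2 of both groups. There edgeR called 6 higher without the block (379 of all 14654 tested genes). The stem cell list summed to 1725 to 2087 CPM and 1272 to 1790 CPM, with 1 of 7 lower in edgeR without the block, 2 lower and 1 higher with it, and 1 lower and 1 higher in DESeq2. Sums for proliferating cells were 1404 to 1638 and 1420 to 1634 CPM (0 of 7 called in both edgeR fits and in DESeq2), for Paneth cells 1911 to 2230 and 1845 to 1964 CPM (1 of 6 lower in all 3), for enteroendocrine cells 195 to 276 and 220 to 304 CPM (0 of 7 in edgeR without the block and in DESeq2, and 1 higher with the block), and for tuft cells 9.28 to 12.2 and 11 to 14 CPM (0 of 4 tested in edgeR without the block, 1 higher with it and 1 higher in DESeq2). The immune list summed to 2.57 to 3.08 and 3.84 to 5 CPM, most of it Cd68, with Ptprc at 0 to 0.126 CPM. The part of these shifts in the brush border values was not tested.

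In the authors' deposited table, 5 of the 35 genes were lower at an adjusted edgeR p under 0.05 (1.23% of all genes in that table), Anpep, Ggt1, Lct, Mep1b and Pdzk1. By the adjusted DESeq p of the authors' deposited table, 0 were lower (0.331% of all genes). The fold changes of the authors' deposited table and those fitted here differed by at most 0.02 on the log2 scale for the 35 genes.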

How the data were processed

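Poly(A) RNA was sequenced from directional libraries, per the labels' protocols. STAR 2.4.0f1, bcl2fastq 1.8.4 and the build GRCm38 are named per the submitters' processing notes; the counting program and its strand setting were not given in the sources used here. The authors deposited raw counts per gene and library, a normalised score per library rounded to whole numbers, which was not used, log2 fold changes with mean log2 CPM, and raw and adjusted p-values, per the file headers.

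Counts were fitted in R 4.3.3 with edgeR 4.0.16: filterByExpr, TMM scaling, the quasi-likelihood F test of 4OHT against DMSO over all 14544 genes, Benjamini-Hochberg adjustment and a threshold of 0.05, two-sided. SE is the absolute log2 fold change divided by the square root of F. CPM uses TMM-scaled library sizes. Levels per kilobase use the union of exons in GENCODE M21 (GRCm38), in which 18351 identifiers were found. DESeq2 1.42.0 was an alternative. The fit was tested with and without the block on simulated counts that held no replicate effect. Its behaviour where replicates share an effect was not tested.

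Same-numbered libraries departed from their group means together (correlations across genes of 0.3, 0.33 and 0.43, against -0.37 to 0.07 for other combinations). Deviations within a group add up to 0, so positive values for same numbers push those of other combinations down. The contrast between them is therefore no separate support for the pairing. Pairing by number thus rests on these data and not on the labels. Nothing says that replicates came from separate animals or cultures, so the p-values cover library-to-library spread only, possibly of technical origin. Members and lists were chosen with earlier results of these data known. Library values are given for Vil1, Hnf4a, genes called with or without the block and the most abundant gene per kilobase of each role; from each related list the rule took up to 4 genes of smallest p. Further genes of these lists, such as relatives of the members and genes called with the block, and some members' library values were chosen after their values were seen. The values of 1 gene of the related lists are not reported here, though the counts include it.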

Additional observations from a re-analysis of the deposited data

How the results depend on the processing

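The number of brush border genes called lower was 0 without the block. It was 13 with the replicate block, 4 in DESeq2, 5 in replicates 1 and 2 of both groups and 27 in those 4 libraries with the block, where 2 were called higher; that fit has 1 residual degree of freedom per gene. It was 0 to 2 when single libraries were left out, and, in fits chosen after seeing the data, 1 to 13 when replicate 1 or 2 of both groups was left out with the block. Fits without replicate 1 or 2 of both groups, with the block, also have 1 residual degree of freedom per gene. Library totals, RLE factors, no filter and a filter at 5 CPM each gave 0. The median log2 fold change of -0.43 was -0.29 in replicates 1 and 2, with and without the block, and ran from -0.51 to -0.12 when single libraries were left out. Of the related lists' 77 genes tested in edgeR, 2 were called without the block (30 lower and 102 higher of all 14544 genes). With the replicate block 16 were called (437 lower and 580 higher of all), and DESeq2 called 9. In replicates 1 and 2 the number was 10 (222 lower and 379 higher of all 14654 genes). It was 40 there with the block, where 1196 of all genes were called lower and 1482 higher. The number for the related lists was 0 to 5 when single libraries were left out, and 11 or 1 when replicate 1 or 2 of both groups was left out with the block. For the 40 genes named by the rule, the sign of the log2 fold change did not turn in the 16 alternatives. This does not cover other genes: without DMSO replicate 3, 1 fewer gene was above 0 both in the core actin bundle and among the linkers and nucleators, where log2 fold changes lay near 0. The cause of these shifts was not tested. Tmigd1 and Enpp3, at under 5 CPM, limit what depth can show.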
